A study of Homo sapiens with 4 samples.

Results

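The genes described here are 50 human genes that copy DNA in S phase or repair it by homologous recombination, with the kinases and regulators that act at the G1/S step. They were listed by name for these known functions. The rule uses no measured value, but the list was drawn up with earlier results of these data known. All 50 were found, through 63 probes, among 25121 genes with a symbol. Every one of the 63 probes was well above background on all 4 arrays.

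The RNA came from PC3 and DU145, established androgen-independent prostate cancer cell lines. In each line, cells transduced with an shRNA against luciferase (PC3-shC, DU145-shC) were set against cells transduced with an shRNA against ESS2 (PC3-shESS2, DU145-shESS2), and each of the 4 conditions was measured on 1 one-colour Agilent array. The labels name the luciferase shRNA and call the cells transduced, while the study's methods describe stable PC3 lines made by transfecting shRNA plasmids and selected with puromycin, the control included. The aim stated for the series was to see how gene expression in these cancer cells changes when ESS2 is depleted. No difference within a cell line has a replicate check, so that precision is limited by having 4 arrays in all.

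DNA replication starts when the origin recognition complex, CDC6 and CDT1 load the MCM helicase onto origins in G1, and continues when CDC45 and the GINS complex turn the helicase on in S phase. Homologous recombination repairs broken DNA and collapsed forks from an intact sister copy, with BRCA1, BRCA2 and the Fanconi anaemia proteins among its factors. Many of these genes are transcribed at the G1/S boundary under E2F transcription factors, so that their transcripts are plentiful in cycling cells. In RNA from whole cultures, fewer cells in S phase and less transcript per cell cannot be told apart.

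Signals below are the background-subtracted processed signals of the scanner, without scaling between arrays. Log2 ratios (shESS2 over shC) were taken after each array was divided by its 75th percentile, which was 263 for PC3-shC, 290 for PC3-shESS2, 212 for DU145-shC and 218 for DU145-shESS2. The log2 ratio between copies of the same probe on 1 slide had a median SD of 0.084 in PC3 and 0.082 in DU145, and 2 SD of it (0.168 and 0.164) is used below as the reach of the spots. It covers neither the labelling nor the cells.

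The targeted gene was lower in both knockdowns. The ESS2 signal was 133 in PC3-shC and 53.6 in PC3-shESS2 cells, a log2 ratio of -1.45, and 85.7 in DU145-shC and 17.3 in DU145-shESS2 cells, a log2 ratio of -2.35. CTNNA1, which PC3 cells have lost, was not well above background in PC3, whether control or knockdown, and had a signal of 4320 in DU145-shC cells. The 4 epithelial markers examined were well above background on all arrays, with a summed signal of 218630 and 235400 in PC3 and 56280 and 62357 in DU145, while KLK3 was not well above background on any array. EPCAM, one of these epithelial markers, moved with the knockdown in DU145, from a signal of 2120 to 357. Of 8 leukocyte, stromal and endothelial markers, 5 were well above background on each PC3 array and 4 on each DU145 array. CD14 was at 221 in PC3-shC and 54.7 in PC3-shESS2 cells, and PECAM1 at 338 and 16.4. The part of these markers in the results below was not tested.

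In PC3 cells, replication and homologous repair genes were lower after ESS2 knockdown almost throughout. Of the 50 genes, 48 had a lower scaled signal in PC3-shESS2 than in PC3-shC cells, against 55.7% of the 16764 genes compared. Their median log2 ratio was -0.41 (1.33-fold lower), with the quartiles at -0.54 and -0.26, and the median over all genes compared was -0.06. Beyond 2 SD of the spots, 43 of the 50 were lower, against 37.7% of all genes, and 1 was higher. The differences were small: 10 genes were lower by more than 1.5-fold (9.98% of all genes) and 1, MCM3, by more than 2-fold (3.87% of all genes). The count past 1.5-fold was 18 under median scaling and 4 under quantile normalization or the authors' own scaling, and MCM3 did not pass 2-fold under the latter pair or normexp. None was higher by more than 1.5-fold, against 10.1% of all genes. Of all genes past 1.5-fold in PC3, 49.8% were lower, a share of 63.7% under median scaling and of 38.2% under the authors' own scaling, and under each of these 0 of the 50 genes were higher by that much. The 10 genes were MCM3, MCM10, MCM5, E2F2, MCM7, CDC45, EXO1, FANCD2, PCNA and RFC4.

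In DU145 cells, 46 of the 50 genes were lower in DU145-shESS2 than in DU145-shC cells, against 52.8% of the 16842 genes compared. The median log2 ratio was -0.39 (1.31-fold lower), with the quartiles at -0.49 and -0.24, beside -0.02 over all genes compared. Beyond 2 SD of the spots, 40 were lower, against 33.3% of all genes, and 1 was higher. Again 10 genes were lower by more than 1.5-fold (8.63% of all genes), 0 by more than 2-fold (2.47% of all genes), and 0 were higher by more than 1.5-fold (7.18% of all genes). With normexp 4 were lower by more than 1.5-fold, a count that has no share of all genes beside it. These 10 were CDT1, BRCA1, GINS1, RFC3, CCNE2, MCM3, BLM, E2F2, FANCI and RRM2. MCM3 and E2F2 were also in the PC3 set, an overlap that has no share of all genes beside it.

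**Figure D1:**
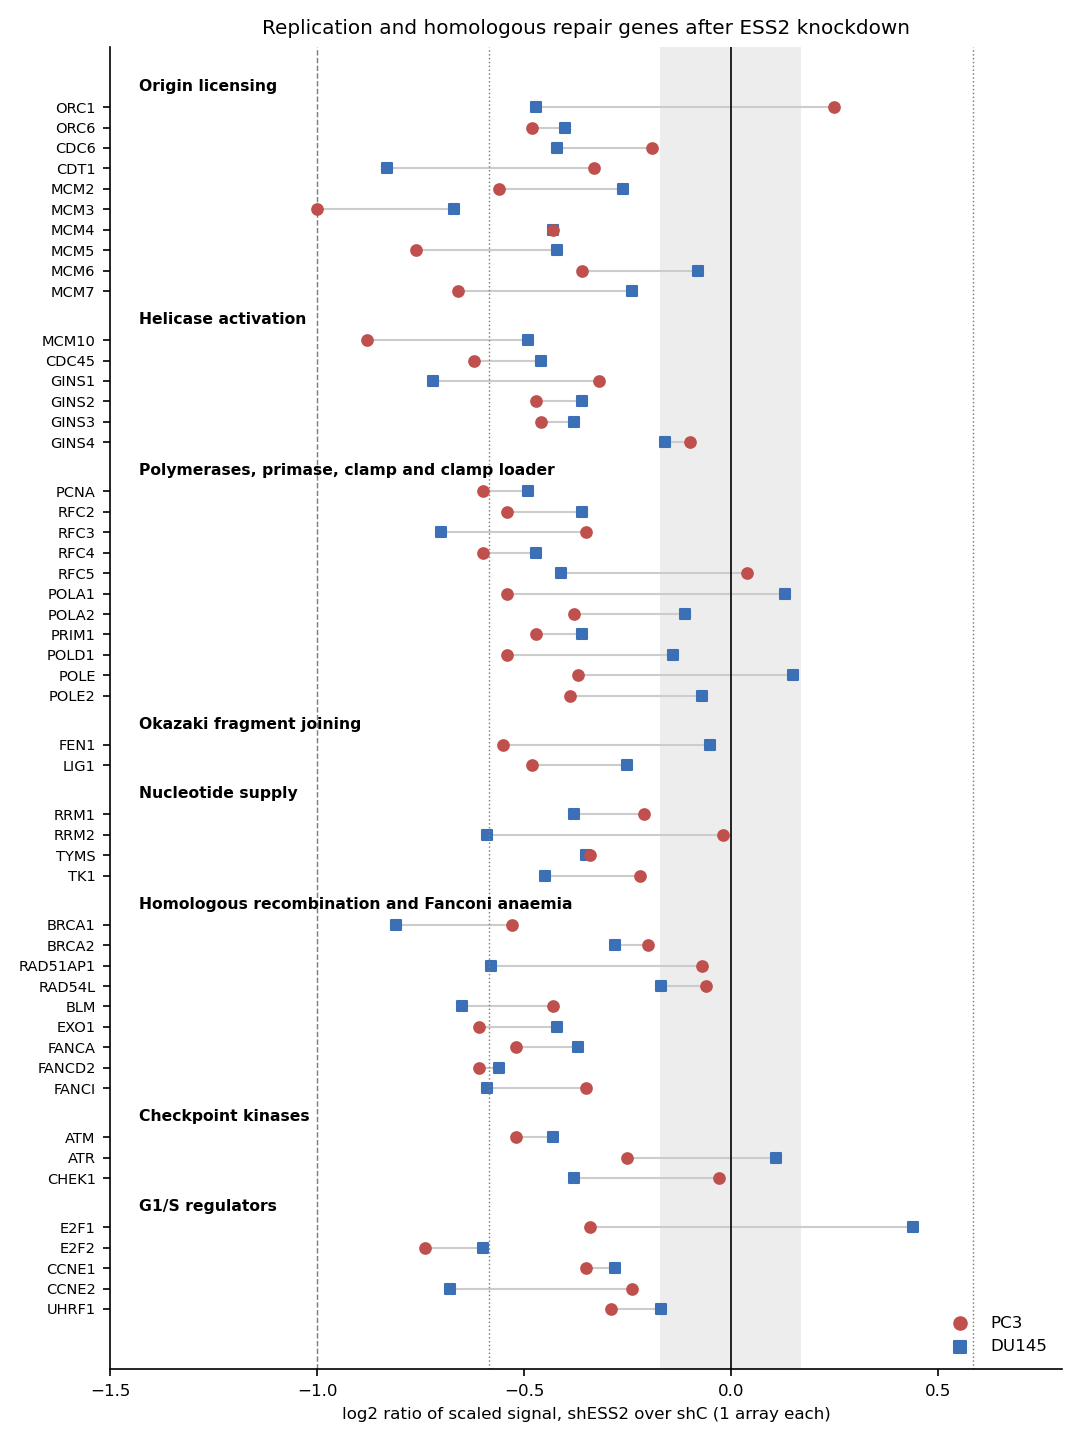
Log2 ratio of the scaled signal (shESS2 over shC, x axis) of each of the 50 genes (y axis, grouped by role), in PC3 (red circles) and DU145 (blue squares), with 1 array per condition and no error bars. The grey band is 2 SD of the ratio between spots, the dotted lines mark 1.5-fold and the dashed line 2-fold; 48 circles and 46 squares lie left of 0.

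The 50 genes differed from genes of a like signal by about as much as from all genes. Among the 4004 genes whose mean level lay between the quartiles of the levels of the 50, the median log2 ratio was -0.08 in PC3 and -0.01 in DU145. In PC3, 59.9% of these genes were lower and 7.62% were lower by more than 1.5-fold, and in DU145 51.9% and 4.85%.

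**Figure D2:**
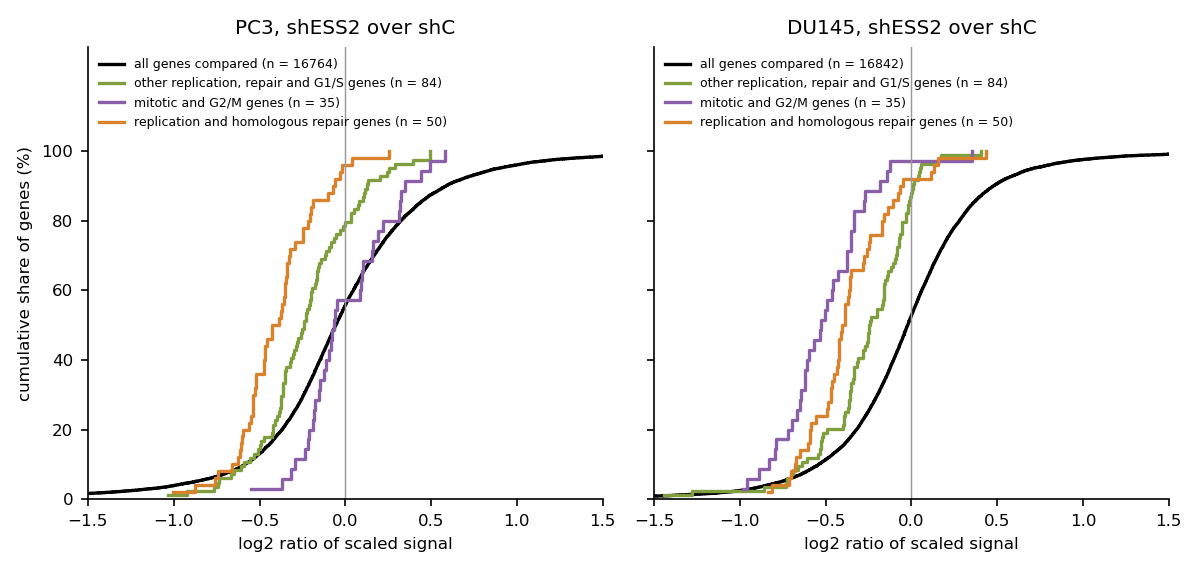
Cumulative share of genes (y axis, %) against the log2 ratio of the scaled signal (x axis) in PC3 (left) and DU145 (right), for all genes compared (black), the 50 replication and homologous repair genes (orange), 84 further replication, repair and G1/S genes (green) and 35 mitotic and G2/M genes (purple). Around their medians of -0.41 and -0.39 the orange curves lie left of the black ones, but not in the lower tail, where 3.87% and 2.47% of all genes and 2.0% and 0.0% of the 50 were lower by more than 2-fold. The purple curve has a median of -0.07 in PC3 and -0.53 in DU145.

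The origin licensing genes, which mark and load origins in G1, had a median log2 ratio of -0.45 in PC3 and -0.42 in DU145, and 9 and 10 of the 10 were lower. Among them the MCM2 to MCM7 genes encode the ring of the replicative helicase, and all 6 were lower in both lines. In DU145, MCM6 was within 2 SD of the spots, and a further probe of MCM7 had a log2 ratio of 0.08. MCM3 was the largest difference of the 50 in PC3. Its signal was 17600 in PC3-shC and 9690 in PC3-shESS2 cells, and 9890 in DU145-shC and 6380 in DU145-shESS2 cells. Its scaled signal in knockdown cells was thus 49.9% of the control in PC3 (log2 ratio -1.0) and 62.7% in DU145 (-0.67). MCM5 had signals of 3540 and 2310 in PC3 and of 2670 and 2050 in DU145 (log2 ratios -0.76 and -0.42). MCM7 had signals of 37900 and 26400 in PC3 and of 13000 and 11300 in DU145 (-0.66 and -0.24). The log2 ratios of the other 3 helicase genes were -0.56 and -0.26 for MCM2, -0.43 and -0.43 for MCM4, and -0.36 and -0.08 for MCM6, in PC3 and DU145. The median over the 6 was -0.61 in PC3 and -0.34 in DU145, and MCM4 alone had the same value in both. This difference between the lines was not tested.

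CDT1, which brings the helicase ring to the origin, had its larger difference in DU145. Its signal was 3360 in PC3-shC and 2950 in PC3-shESS2 cells (log2 ratio -0.33), and 1670 in DU145-shC and 963 in DU145-shESS2 cells (-0.83), the largest difference of the 50 genes in DU145. CDC6, the ATPase that loads the ring with CDT1, was dim, with signals of 124, 120, 43.3 and 33.2 on the PC3-shC, PC3-shESS2, DU145-shC and DU145-shESS2 arrays (-0.19 and -0.42). ORC1, the largest subunit of the origin recognition complex, went opposite ways in the 2 lines. It had signals of 206 and 271 in PC3 (log2 ratio 0.25) and of 108 and 80.1 in DU145 (-0.47), each beyond 2 SD of the spots. ORC6, a small subunit of the same complex, had log2 ratios of -0.48 and -0.40. The 4 other ORC genes measured, ORC2 to ORC5, which are not among the 50, had median log2 ratios of -0.02 in PC3 and 0.02 in DU145, and 2 of 4 were lower in each line.

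CDC45, the 4 GINS genes and MCM10 encode factors that turn the loaded ring into the moving helicase, and all 6 were lower in both lines, with medians of -0.46 and -0.42. MCM10 had the next largest difference in PC3 after MCM3, from a signal of 238 to 143 (log2 ratio -0.88), and went from 274 to 201 in DU145 (-0.49). CDC45 went from 9170 to 6560 in PC3 (-0.62) and from 4130 to 3080 in DU145 (-0.46). GINS1, a GINS subunit, likewise had its larger difference in DU145. Its signal was 5640 and 4980 in PC3 (-0.32) and 1230 and 770 in DU145 (-0.72). GINS2 and GINS3, which form a complex with GINS1, had log2 ratios of -0.47 and -0.36, and of -0.46 and -0.38. GINS4, the remaining subunit, had -0.10 and -0.16, within 2 SD of the spots in both lines. Over the 11 genes of the active helicase (MCM2 to MCM7, CDC45 and the GINS genes), the median was -0.47 in PC3 and -0.38 in DU145.

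The polymerases, primase, clamp and clamp loader make and hold the new strands. In PC3, 10 of these 11 genes were lower, with a median of -0.47, and all 10 lay beyond 2 SD of the spots. In DU145, 9 were lower, with a median of -0.36, and 6 lay beyond 2 SD. PCNA, the sliding clamp that holds the polymerases on DNA, had signals of 15300 and 11100 in PC3 (log2 ratio -0.60) and of 3310 and 2420 in DU145 (-0.49). RFC4, a subunit of the clamp loader, went from 6350 to 4630 in PC3 (-0.60) and from 4300 to 3200 in DU145 (-0.47). RFC3, another subunit, went from 608 to 525 in PC3 (-0.35) and from 286 to 181 in DU145 (-0.70). RFC2 had log2 ratios of -0.54 and -0.36. RFC5 had signals of 6160 and 6980 in PC3, where its log2 ratio of 0.04 was within 2 SD of the spots and changed sign to -0.06 when arrays were scaled to their medians, and of 2900 and 2240 in DU145 (-0.41).

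The 6 genes beyond 2 SD in DU145 were PCNA, RFC2, RFC3, RFC4, RFC5 and PRIM1. POLA1, POLA2, POLD1, POLE and POLE2 were not among them. POLA1, the catalytic subunit of the polymerase that primes synthesis together with primase, had signals of 5690 and 4320 in PC3 (log2 ratio -0.54) and of 472 and 531 in DU145 (0.13). POLE, the catalytic subunit of the leading-strand polymerase, had signals of 221 and 189 in PC3 (-0.37) and of 96.2 and 110 in DU145 (0.15). The differences of POLA1 and POLE in DU145 were both within 2 SD of the spots. Further log2 ratios in PC3 and DU145 were -0.54 and -0.14 for POLD1, the catalytic subunit of the lagging-strand polymerase, -0.39 and -0.07 for POLE2, -0.38 and -0.11 for POLA2, and -0.47 and -0.36 for the primase gene PRIM1. FEN1, the flap nuclease that trims Okazaki fragments, and LIG1, the ligase that joins them, had -0.55 and -0.48 in PC3 and -0.05 and -0.25 in DU145.

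The 4 genes of nucleotide supply had a median log2 ratio of -0.21 in PC3 and -0.42 in DU145. RRM2, the regulated subunit of ribonucleotide reductase, had signals of 2840 and 3090 in PC3, where its log2 ratio of -0.02 turned to 0.05 with quantile normalization and 0.07 with the authors' scaled values. In DU145 its signal was 789 and 539 (-0.59). RRM1, the other subunit, had -0.21 and -0.38. The thymidylate synthase gene TYMS had -0.34 and -0.35, and the thymidine kinase gene TK1 -0.22 and -0.45.

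All 9 homologous recombination and Fanconi anaemia genes were lower in both lines, with medians of -0.43 in PC3 and -0.56 in DU145. BRCA1, which promotes resection of broken ends, had signals of 793 and 606 in PC3 (log2 ratio -0.53) and of 729 and 427 in DU145 (-0.81). BLM, the helicase mutated in Bloom syndrome, had signals of 1130 and 925 in PC3 (-0.43) and of 661 and 433 in DU145 (-0.65). EXO1, a nuclease of end resection, had signals of 1705 and 1231 in PC3 (-0.61) and of 519 and 399 in DU145 (-0.42). FANCD2 and FANCI form the pair that is ubiquitinated at stalled forks. The FANCD2 signal was 600 and 434 in PC3 (-0.61) and 303 and 212 in DU145 (-0.56). The FANCI signal was 2470 and 2140 in PC3 (-0.35) and 1370 and 935 in DU145 (-0.59). FANCA, a subunit of the complex that modifies this pair, had log2 ratios of -0.52 and -0.37. BRCA2, which acts in strand invasion, was dim, with signals between 77.9 and 92.2 on the 4 arrays and log2 ratios of -0.20 and -0.28. RAD51AP1 and RAD54L, which act in strand exchange, were within 2 SD of the spots in PC3 (-0.07 and -0.06) and had -0.58 and -0.17 in DU145.

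Of the checkpoint kinases, ATM had signals of 173 and 133 in PC3 (log2 ratio -0.52) and of 449 and 342 in DU145 (-0.43). ATR had signals of 1150 and 1070 in PC3 (-0.25) and of 1080 and 1200 in DU145 (0.11, within 2 SD of the spots). CHEK1, the kinase that ATR activates, had -0.03 and -0.38.

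Among the G1/S regulators, the 2 E2F genes listed differed in sign in DU145. E2F2 had signals of 3290 and 2170 in PC3 (log2 ratio -0.74) and of 2050 and 1390 in DU145 (-0.60). E2F1 had signals of 2844 and 2479 in PC3 (-0.34) and of 659 and 917 in DU145 (0.44), the only one of the 50 genes that was higher beyond 2 SD of the spots in DU145. CCNE2, a cyclin E gene, had signals of 947 and 882 in PC3 (-0.24) and of 333 and 214 in DU145 (-0.68), and CCNE1, the other, had -0.35 and -0.28. UHRF1, which recruits the maintenance DNA methyltransferase to new DNA, had -0.29 and -0.17.

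**Figure D3:**
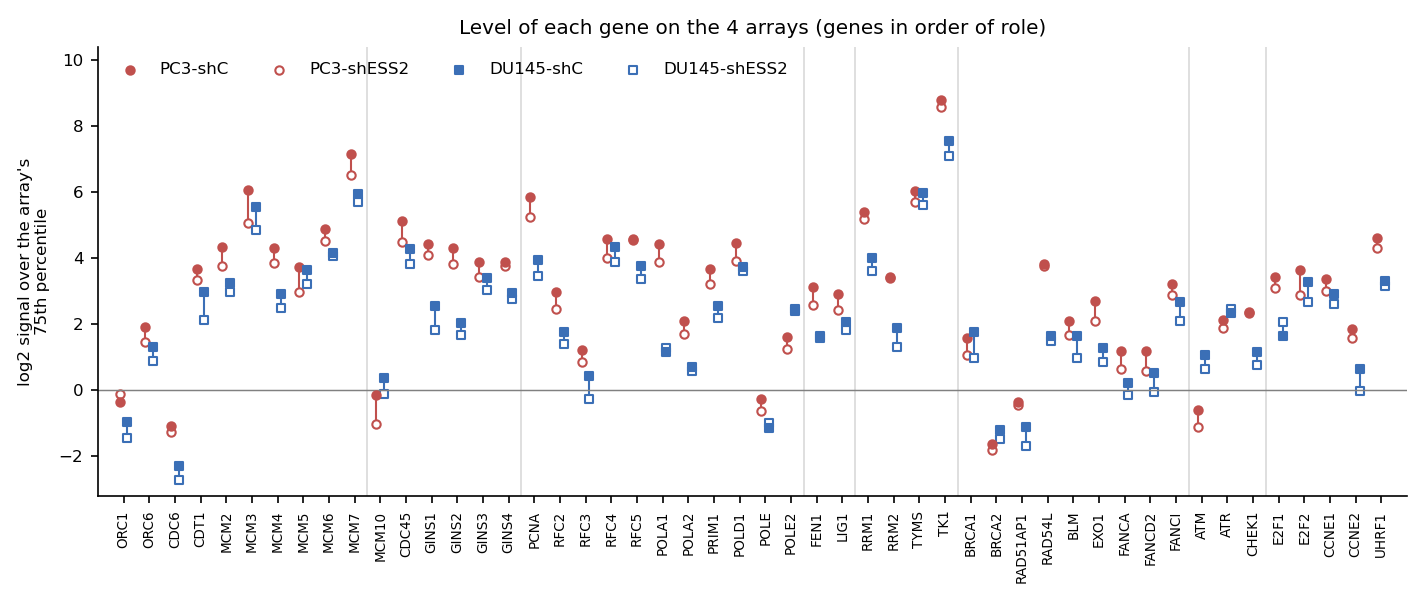
Log2 signal over the array's 75th percentile (y axis) of each of the 50 genes (x axis, in order of role, roles split by grey lines) on the 4 arrays: PC3 in red circles, DU145 in blue squares, control filled and knockdown open, joined within a line, with 1 array per condition. The height of 1 gene cannot be set against that of another, since each probe has its own response; 48 open circles lie below their filled circle and 46 open squares below their filled square.

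Taking both lines, 44 of the 50 genes were lower in each, against 33.3% of the 15478 genes compared in both, and 34 were lower beyond 2 SD of the spots in both, against 15.1%. ORC1 and E2F1, 2 of the 50, lay beyond 2 SD of the spots in opposite directions, against 16.1%. Pearson's r between the PC3 and DU145 log2 ratios was 0.0816 and Spearman's rho 0.0538 across the 50 genes, and r was 0.15 across the 15478 genes. Genes are not independent replicates, and the 2 lines were run on different slides. 30 genes had the lower log2 ratio in PC3 and 20 in DU145, with a median difference (PC3 minus DU145) of -0.10. That difference depended on the scaling, at -0.23 under median scaling (35 and 15 genes), -0.01 under quantile normalization (26 and 24) and -0.03 under the authors' own scaling (29 and 21).

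**Figure D4:**
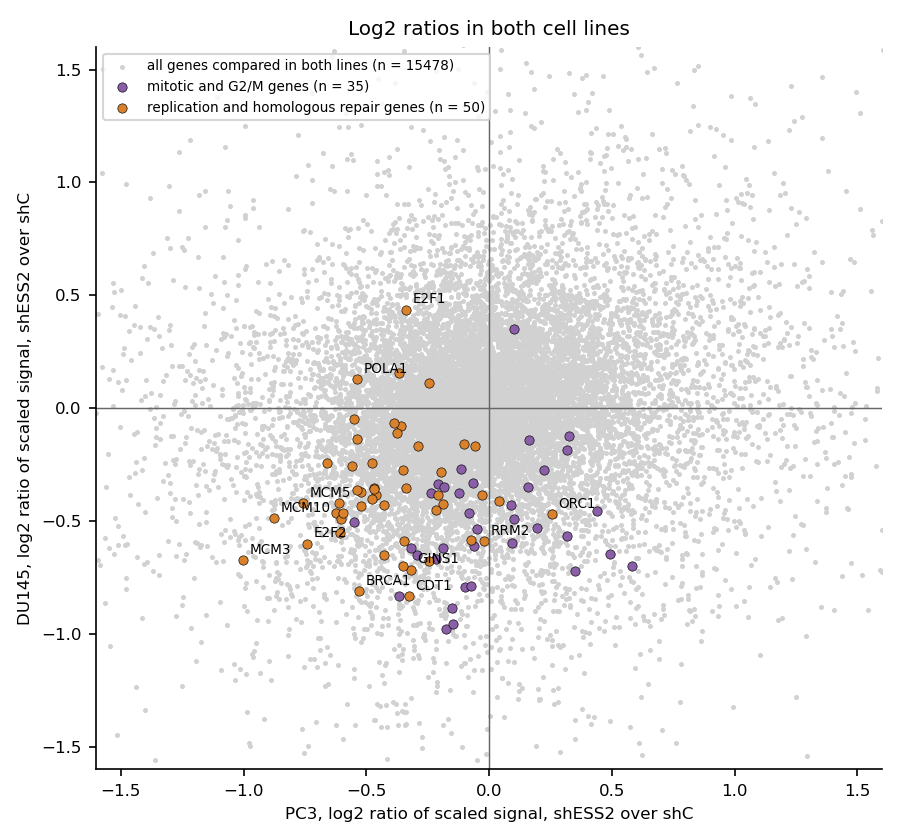
Log2 ratio of the scaled signal (shESS2 over shC) in PC3 (x axis) and DU145 (y axis), with 1 point per gene, for the genes compared in both lines (grey), the 50 replication and homologous repair genes (orange) and 35 mitotic and G2/M genes (purple); genes beyond 1.6 on either axis are not drawn. Of the orange points, 44 lie below 0 on both axes.

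A test across lines was possible only with the line as the unit of replication. limma was fitted over 17126 genes on the 4 arrays, taking cell line as the blocking factor. It called 0 of the 50 genes, and 0.0% of all genes, at a Benjamini-Hochberg adjusted p under 0.05. The lowest limma adjusted p was 0.746, among the 50 and among all genes. The median limma difference (shESS2 minus shC, log2) of the 50 was -0.41, with standard errors between 0.18 and 0.27. At an unadjusted p under 0.05, 10 of the 50 were lower, against 3.26% of all genes (1047 genes in either direction). They were MCM3 (-0.84, SE 0.20), MCM10 (-0.68, SE 0.20), BRCA1 (-0.67, SE 0.19), E2F2 (-0.67, SE 0.18), MCM5 (-0.59, SE 0.20), FANCD2 (-0.58, SE 0.18), PCNA (-0.55, SE 0.18), CDC45 (-0.54, SE 0.18), BLM (-0.54, SE 0.19) and RFC4 (-0.53, SE 0.18). The fit had 1 residual degree of freedom, which limits what it can call.

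Several probes were available for 11 of the 50 genes, and a gene's value above is that of its brightest probe. The median span between the probes of a gene was 0.15 in PC3 and 0.27 in DU145 (log2). For MCM5, PCNA, RFC3, CCNE2 and UHRF1, the probes lay within 0.18 of each other in both lines. ATM was the least certain: a further probe had signals of 173 and 170 in PC3 and of 109 and 153 in DU145, a log2 ratio of 0.45 in DU145 where the brighter probe had -0.43. A dim FANCD2 probe, with signals of 27.3, 33.3, 20.8 and 10.1, had 0.15 in PC3 and -1.08 in DU145. The third FANCD2 probe, with signals of 524 and 417 in PC3, had -0.47 in PC3 and -0.36 in DU145, and with the mean of its probes FANCD2 had -0.31 in PC3, short of 1.5-fold. A further probe of MCM7 had -0.62 in PC3 and 0.08 in DU145, one of ATR -0.13 and -0.20, and a dim one of POLE -0.11 and -0.11, where the brighter POLE probe had 0.15 in DU145. FANCA had 3 probes, all lower in both lines, between -0.52 and -0.16 in PC3 and between -1.06 and -0.35 in DU145.

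Between the lines, most of the 50 genes had the higher level in PC3. In the same limma fit, 43 of the 50 had a higher mean level in PC3 than in DU145, against 53.9% of all genes fitted, and the median difference was 0.95 (log2, 1.93-fold), beside 0.10 over all genes fitted. At a limma adjusted p under 0.05, 32 of the 50 were higher in PC3, against 28.5% of all genes, and 2 were lower, against 23.8%. Each line has only its control and its knockdown array, with no replicate culture. These p-values rest on how far the knockdown difference varied between the lines, and not on the spread between cultures of a line. Under the authors' own scaling, 19 were called higher, against 17.8% of all genes, and the median difference was 0.54, beside -0.31 over all genes. With quantile normalization, 23 were called, against 24.1%, and the median was 0.57, beside 0.02. POLA1 differed most, with a mean log2 level 2.95 higher in PC3 (SE 0.25, adjusted p 0.00416), followed by RAD54L (2.21), GINS2 (2.20) and GINS1 (2.08). The 2 lower ones were ATM (-1.73, SE 0.18, adjusted p 0.00577) and POLE2 (-0.99, SE 0.19, adjusted p 0.0215). The ATM value rests on 1 of 2 probes, and the other had a mean log2 level of -0.69 in PC3 and -0.74 in DU145, a difference of 0.05. Slide, scan and the version of the scanner software changed together with the cell line, so that line and array run cannot be told apart in these differences.

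The 84 further genes of the same processes that the array measured showed lower values of a smaller size. In PC3, 67 of them (79.8%, against 55.7% of all genes) were lower, with a median log2 ratio of -0.24, beside -0.06 over all genes. In DU145, 74 (88.1%, against 52.8%) were lower, with a median of -0.24, beside -0.02. By list, the medians in PC3 and DU145 were -0.21 and -0.20 for 37 replication genes, -0.28 and -0.25 for 33 recombination and repair genes, and -0.27 and -0.26 for 14 E2F, cyclin and CDK genes of G1/S. Lower by more than 1.5-fold were 9 in PC3 (10.7%, against 9.98% of all genes) and 10 in DU145 (11.9%, against 8.63%), shares near those of all genes, and none was higher by that much. The genes RPA1 to RPA3, which coat single-stranded DNA, had medians of -0.21 and -0.05. Past 2-fold were XRCC3, a recombination gene, in PC3 (signals of 4930 and 2660, log2 ratio -1.03, but -0.91 to -0.99 with quantile normalization, normexp or the authors' own scaling), and in DU145 FANCF, a subunit of the Fanconi core complex, and the nuclease and helicase gene DNA2. FANCF had signals of 169 and 64.0 in DU145 (-1.44) and a log2 ratio of -0.16 in PC3. A further FANCF probe gave -1.40 in DU145 and -0.46 in PC3. DNA2 had signals of 88.6 and 37.5 in DU145 (-1.28) and 0.03 in PC3, which turned to -0.07 when arrays were scaled to their medians. With normexp, FANCF had -0.87 and DNA2 -0.58 in DU145, short of 2-fold.

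Mitotic and G2/M genes, which cycling cells express after S phase, served as a comparison. Of these 35 genes, 20 (57.1%) were lower in PC3, near the 55.7% of all genes, with a median log2 ratio of -0.07, and 0 were lower by more than 1.5-fold, against 9.98%. In DU145, 34 (97.1%) were lower, against 52.8%, with a median of -0.53, and 15 (42.9%) were lower by more than 1.5-fold, against 8.63%. The replication and repair genes thus had medians of -0.41 and -0.39 in the 2 lines, while the mitotic genes had -0.07 and -0.53. With 1 array per condition the difference between the lists was not tested.

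Promoter sequences were examined to describe the 50 genes. They were listed for functions in S phase and at G1/S, where many genes are under E2F. A high share of E2F letters can therefore come from the list itself. A part of these letters in the knockdown differences was not tested. RefSeq windows (GRCh38.p14, 250 bases before a transcription start to 50 after it) were given for 45 of the 50 genes, and not for MCM4, MCM5, GINS4, FANCI and CCNE2. Both strands were searched for 8 letters of the E2F motif (TTTGGCGC, TTTGCCGC, TTTCGCGC or TTTCCCGC), for CCAAT, the letters that NF-Y binds, and for TTTGAA, the cell cycle homology region (CHR) of many G2/M promoters. The E2F letters on opposite strands can overlap, as they do in the MCM6 window. They were present for 23 of the 45 genes (51.1%), against 3.99% of 27305 genes with a window, and for 10.3% of 29 mitotic and G2/M genes. Counted over windows, since genes can have several, the shares were 39.3% of 61 and 3.31% of 35116. CCAAT was present for 27 of the 45 genes and for 39.7% of all genes. TTTGAA was present for 4.44% of the 45 genes, 18.2% of all genes and 75.9% of the mitotic and G2/M genes. A match is a description of these letters and not of binding.

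**Figure D5:**
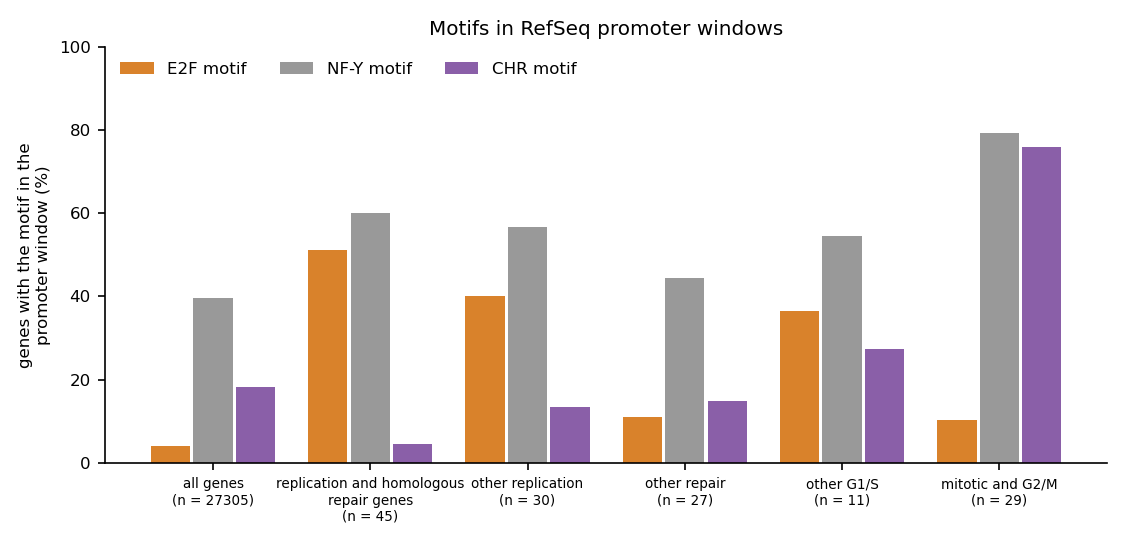
Share of genes (y axis, %) with the letters of the E2F, NF-Y and CHR motifs in a RefSeq promoter window, by gene list (x axis, with the number of genes that have a window). The E2F bar is 51.1% for the replication and homologous repair genes and 10.3% for the mitotic and G2/M genes, and the CHR bar is 4.44% and 75.9%.

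By role, the E2F letters were present for 6 of 8 origin licensing genes, 3 of 5 helicase activation genes, 6 of 11 polymerase, primase, clamp and clamp loader genes, 1 of 2 Okazaki fragment genes, 1 of 4 nucleotide supply genes, 3 of 8 recombination and Fanconi genes, 0 of 3 checkpoint kinases and 3 of 4 G1/S regulators. In PC3 the median log2 ratio was -0.46 for the 23 genes with the letters and -0.39 for the 22 without, and in DU145 -0.36 and -0.41. Lower were all 23 with and 20 of 22 without the letters in PC3, and 20 of 23 with and 21 of 22 without them in DU145. The stretches below show where the letters lie in the 6 windows of genes past 1.5-fold in a line that hold them wholly before the start, and in that of E2F1, whose own difference changed direction between the lines. Each is 60 bases of the reference on the strand of the gene, with the E2F letters of either strand in capitals.

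E2F1 (chr20:33686386-33686445, minus strand): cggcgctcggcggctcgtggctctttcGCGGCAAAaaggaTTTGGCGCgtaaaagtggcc
E2F2 (chr1:23531242-23531301, minus strand): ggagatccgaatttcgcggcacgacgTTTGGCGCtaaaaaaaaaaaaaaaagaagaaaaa
CDT1 (chr16:88803728-88803787, plus strand): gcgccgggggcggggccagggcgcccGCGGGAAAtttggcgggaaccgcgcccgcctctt
PCNA (chr20:5126648-5126707, minus strand): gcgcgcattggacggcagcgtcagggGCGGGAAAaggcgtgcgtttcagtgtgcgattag
RFC3 (chr13:33818068-33818127, plus strand): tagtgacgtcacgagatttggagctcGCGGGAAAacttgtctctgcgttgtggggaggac
MCM3 (chr6:52284883-52284942, minus strand): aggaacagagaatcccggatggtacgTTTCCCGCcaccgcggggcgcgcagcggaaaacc
MCM7 (chr7:100101398-100101457, minus strand): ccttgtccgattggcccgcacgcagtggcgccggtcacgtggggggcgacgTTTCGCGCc

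E2F1 holds the letters 2 times within this stretch, and the other genes 1 time. In E2F1, E2F2, CDT1, PCNA and RFC3 the first base of a match lies between positions -59 and -20 from the start. MCM3 and MCM7 have a further match in the window, MCM3 across the start and MCM7 at position -187. All of these genes but E2F1 were picked for passing 1.5-fold, so that large differences among them follow from the choice. They include MCM3, the largest difference in PC3, CDT1, the largest in DU145, and E2F1, the gene with the highest log2 ratio in DU145. The next largest, MCM10 in PC3 (-0.88) and BRCA1 in DU145 (-0.81), have windows without the E2F letters.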

How the data were processed

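Total RNA (0.1 µg per array, per the labels) of 4 conditions was labelled with Cy3 and hybridized to 1 array each. The authors deposited the scanner output of Agilent Feature Extraction (12.1.0.3 for PC3, 12.0.3.1 for DU145), with a background-subtracted intensity for every spot, and a table of scaled intensity values, each column of which was the processed signal times 1 constant, the highest ratio on an array being 0.98 to 0.99% above the lowest. All 4 sample columns were used, and 0 other columns of samples were present.

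After control and outlier spots were removed, signals were divided by the 75th percentile of their array and log2-transformed. Probes were named by matching their accession to RefSeq (GRCh38.p14), which named 34892 of 58201 probes from the newer annotation release of the PC3 files and 188 more from the older one, and the brightest probe stood for a gene. A gene was compared in a line when 1 or both of its arrays measured it well above background, a dim value being raised to the lowest signal well above background on that array. As each condition has 1 array, no test was made within a line. Across lines, limma was fitted with the cell line as a block, over the genes that 2 or more arrays measured well above background, with p-values adjusted over all of them (Benjamini-Hochberg).

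The 50 genes, the other lists and the tests were chosen with earlier results of these data known. Genes named in full were those past 1.5-fold in a line, the 3 largest differences each way in a line, genes whose probes differed in sign by over 0.3, genes of the other lists past 2-fold, ESS2 and CTNNA1. Some genes of the lists are not reported here by name. Alternatives were other scalings, background correction (normexp, offset 50, on median signals), dim-gene filters, probe rules and thresholds, and, chosen after seeing the data, a comparison with genes of the members' level. The calculations were tested on simulated data. The tools were limma 3.58.1 in R 4.3.3, and Python 3.11.15 with pandas 2.3.3 and numpy 2.4.6.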

Additional observations from a re-analysis of the deposited data

Results flagged for a closer look

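Of the 50 genes, 2 lay beyond 2 SD of the spots in opposite directions in the 2 cell lines, against 16.1% of the 15478 genes compared in both. ORC1 was higher in PC3-shESS2 cells (log2 ratio 0.25) and lower in DU145-shESS2 cells (-0.47), a difference of 0.73 between the lines. E2F1 was lower in PC3-shESS2 cells (-0.34) and higher in DU145-shESS2 cells (0.44), a difference of -0.78. With 1 array per condition, the difference between the lines was not tested for either gene.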

How the results depend on the processing

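Every alternative kept the median log2 ratio of the 50 genes below 0 in both lines, and the number of lower genes within 1.5 times of the reported one. In PC3 the median was -0.51 under median scaling and -0.32 under the authors' own scaling, which moved the median of all genes by -0.10 and 0.09. Genes lower by more than 1.5-fold in PC3 numbered 18 with median scaling and 4 each with quantile normalization and the authors' scaled values, and in DU145 4 with normexp. The shares of all genes lower by 1.5-fold given above hold for the reported processing only, and not for these counts. MCM3 no longer passed 2-fold in PC3 with quantile normalization, normexp or the authors' scaled values, which left 0 genes past it. With each probe on its own, 2 probes passed 2-fold in DU145. At 1.5-fold in place of 2-fold, 10 genes passed in PC3 and 10 in DU145. limma called 0 of the 50 under every alternative, and at an unadjusted p under 0.05 it counted 6 with quantile normalization, 20 with normexp, 5 with the authors' scaled values and 0 without the cell line block, where 10 were reported. The 3.26% of all genes lower at that p belongs to the reported fit, so that the alternative counts have no share of all genes beside them. Between the lines, the median level difference of the 50 was 1.34 with median scaling, 0.57 with quantile normalization, 0.77 with normexp and 0.54 with the authors' scaled values, and 19 genes were called higher in PC3 with the last. Without a filter on dim genes, 17 were called higher in PC3, against 10.7% of all genes, with the median at 0.95. The cause was not tested. Of 540 values of single named genes under an alternative, 434 moved by less than 1 SD of the spots and 106 by more. The sign changed for RRM2, RFC5 and DNA2 in PC3, as given with their values, and with the mean of a gene's probes for ATM (0.01) and ATR (-0.04) in DU145. The median of the 50 less that of all genes ranged from -0.35 to -0.30 in PC3 and from -0.40 to -0.28 in DU145.

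The limma fit pairs the 2 arrays of each line through its cell line block. No other paired analysis was possible because the labels give no replicate numbers, and with 1 array per condition no replicate was left out. Signal over background did not limit the 50 genes, whose lowest signal was 33.2, against a lowest signal well above background between 8.15 and 9.02 on the arrays.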

Other observations

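Outside the 50 genes, RMI2, which works with BLM in dissolving recombination intermediates, was the only one of the 84 further genes that was lower by more than 1.5-fold in both lines. It had signals of 3420 and 1990 in PC3 (log2 ratio -0.92) and of 3200 and 2020 in DU145 (-0.70). The nucleotide gene DUT and the fork protection gene TIMELESS were lower by more than 1.5-fold in PC3 (-0.59 and -0.61) and had -0.16 and -0.13 in DU145. The repressive E2F genes E2F7 and E2F8 and the cyclin gene CCNA2 had -0.66, -0.73 and -0.73 in DU145, and 0.25, -0.30 and 0.20 in PC3. The other E2F genes of that list differed from this: E2F3, E2F4, E2F5 and E2F6 had -0.0, -0.86, -0.16 and -0.07 in DU145, and -0.35, -0.51, -0.65 and -0.0 in PC3. These genes were named after their values were seen, and no difference between the lines was tested.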
